A study of Mus musculus with 20 samples.

Results

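Chromatin modifying and remodelling genes were followed through a dose series of H2O2 in cultured mouse muscle cells. Members were taken by name: a probe set counted if its only gene symbol began with Kdm, Kmt2, Kmt5, Setd, Hdac, Chd, Smarc, Arid, Kat or Brd followed by a number or subunit letter. That gave 121 probe sets of 69 genes, and 100 probe sets of 62 genes passed the filter on dim signal, of 14379 probe sets tested in all. A probe set is a group of short oligonucleotides on the array that reads 1 transcript region, and many genes have several. The filter asked for a signal at or above the 40th percentile of its array on at least 4 of the 20 arrays. Just inside it lay Arid4b (1460384_a_at) and Smarca2 (1452333_at), each on 4 arrays, and just outside it Setd4 (1460373_a_at), on 3. The 7 genes with no probe set past the filter were Hdac9, Setd7, Setd4, Arid3b, Kdm5d, Kmt2d and Smarca1. Of the 100 members, 77 were at or above that level on all 20 arrays.

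The cells were C2C12 myotubes, the multinucleated fibres that this established mouse myoblast line forms once serum is lowered, after 96 h of differentiation. For 2 h they were kept in 0.5% horse serum with H2O2, a diffusible oxidant, at 0, 1, 10, 100 or 1000 µM, and total RNA of 4 samples per dose was hybridised to Affymetrix Mouse Genome 430A arrays. All 5 groups therefore shared the cell line, the differentiation, the serum change and the time, and differed by dose alone. A culture of 1 clonal line has no innervation or other tissue cells, and nothing states that the replicates were separate cultures, so the p-values cover only the scatter among these samples, part of which can be technical.

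DNA in the nucleus is wound around histones, and the genes described here act on that packaging. Methyltransferases (Kmt2, Kmt5, Setdb and several Setd genes) and acetyltransferases (Kat) add chemical groups to histone lysines. Demethylases (Kdm) and deacetylases (Hdac) remove such groups, and bromodomain proteins (Brd) bind acetylated lysines. Chromodomain helicases (Chd) and SWI/SNF complexes (Smarc and several Arid subunits) use ATP to move or evict nucleosomes. In muscle precursors such enzymes open and close the genes of differentiation, with class II deacetylases known as partners of MEF2 factors and SWI/SNF as a partner of MyoD.

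At 1000 µM, 21 of the 100 member probe sets fell and 0 rose. Those 21 belong to 14 of the 62 genes: Kmt2e, Chd4, Kdm6a, Arid1a, Brd8, Kdm7a, Kmt2a, Setdb1, Smarcd1, Kmt5b, Kdm5b, Arid4b, Kmt5c and Kat2b. Calls were made by limma at a Benjamini-Hochberg adjusted p under 0.05 over all tested probe sets, two-sided with 4 arrays per dose. Over all tested probe sets 8.48% fell (1220) and 2.46% rose (354), so 21% of members compares with a background of 8.48%. The median log2 difference of the members was -0.28 and that of all tested probe sets -0.07. The share depended on the scaling: with each array centred on its median, 11 members fell against 2.83% of all, and under quantile normalization 8 fell against 3.32%. With the replicate number as a block, 29 members fell against 14.0% of all, and in replicates 2 to 4 alone 28 fell against 12.7%.

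Promoter windows of genes with a called fall were read as a description. These genes share a direction because they were chosen by it. RefSeq windows of build GRCm38.p6, from 250 bases before to 50 after the annotated start, were found for 49 of the 62 member genes and for 12 of the 14 with a called fall. Both strands of the first listed window of each gene were searched. CCAAT stood in 5 of the 12 windows (Arid4b, Chd4, Kat2b, Kmt5c and Setdb1), in 19 of the 49 member windows and in 37.9% of all 27025 first windows. The E-box CACGTG stood in 1 of the 12 (Kdm6a), in 2 of the 49 and in 7.24% of all. The AP-1 letters TGANTCA were in 1 of the 12 (Kat2b), 4 of the 49 and 7.93% of all. The antioxidant response element TGACNNNGC was in 0 of the 12, 2 of the 49 and 12.5% of all. TGACGTCA, the cyclic AMP response element, was in 0 of the 12, 0 of the 49 and 1.88% of all. A match describes letters only. The median GC content was 57.5% in the 12 windows, 60.7% in the 49 and 52.7% in the first window of every gene. Windows were found for 5 of the 7 genes with a probe set called lower under all 15 alternatives tried. Printed below are 3 of them (for Chd4 the first of its listed windows), with 1 CCAAT match, 1 E-box match and 1 window without a match. The first listed windows of Arid1a and Kmt5b, not printed, had no match to any of the 5 motifs either. Matches are in capitals.
Chd4 promoter window, chr6:125095731-125096030, plus strand: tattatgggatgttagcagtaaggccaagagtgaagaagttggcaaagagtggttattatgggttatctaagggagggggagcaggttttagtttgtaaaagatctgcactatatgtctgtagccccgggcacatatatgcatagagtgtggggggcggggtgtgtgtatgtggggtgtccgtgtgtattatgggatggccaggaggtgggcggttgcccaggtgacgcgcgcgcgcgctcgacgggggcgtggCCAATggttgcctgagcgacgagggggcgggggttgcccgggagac
Kdm6a promoter window, chrX:18162325-18162624, plus strand: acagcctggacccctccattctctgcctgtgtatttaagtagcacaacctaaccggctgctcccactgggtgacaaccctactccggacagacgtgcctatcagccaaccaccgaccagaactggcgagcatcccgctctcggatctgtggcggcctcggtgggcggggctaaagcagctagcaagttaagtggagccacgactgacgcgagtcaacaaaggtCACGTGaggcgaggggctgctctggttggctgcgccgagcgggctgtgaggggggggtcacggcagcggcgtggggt
Kmt2a promoter window, chr9:44881240-44881539, minus strand: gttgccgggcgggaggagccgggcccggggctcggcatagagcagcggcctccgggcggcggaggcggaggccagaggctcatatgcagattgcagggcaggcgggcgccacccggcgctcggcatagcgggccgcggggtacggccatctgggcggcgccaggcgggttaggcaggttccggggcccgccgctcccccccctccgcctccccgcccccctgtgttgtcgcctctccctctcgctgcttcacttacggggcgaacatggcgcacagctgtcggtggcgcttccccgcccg

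Some differences between arrays were unrelated to dose. The leading principal component held 28.2% of the variance and separated the 5 arrays treated as number 1, 1 per dose, from the other 15. The untreated arrays had a median log2 signal of 7.41 to 7.53 and the arrays at 1000 µM of 7.24 to 7.28, although their trimmed means were equal by the authors' scaling (exact permutation test, two-sided, p = 0.0286, the smallest that 70 assignments allow; 0.0858 adjusted over 3 array measures). The part of this shift in the members' falls was not tested beyond the other scalings given here. Myotube markers identified the cells: 20 of 20 genes were above the 40th percentile on every untreated array, with a summed signal of 119457 to 142921 untreated and 148603 to 160904 at 1000 µM. These sums do not overlap. Those at 1 µM, 146290 to 149840, did not overlap the untreated ones either, and at 10 µM the sums ran from 136614 to 174348. At 1000 µM 1 of 24 probe sets, Tnnt3, rose (0.32, adjusted p = 0.034), against 2.46% of all tested probe sets. Under median centring 14 rose, or 58.3% against 14.1% of all, and under quantile normalization 0 did. The part of this in the members' falls was not tested. Markers of cycling cells were also present, 9 of 9, at 10550 to 11625 untreated and 10008 to 11683 at 1000 µM; Mki67 fell at 1000 µM (-0.50, adjusted p = 0.00268) and Plk1 at 100 µM (-0.44, adjusted p = 0.0202). Those of quiescent reserve cells, 6 of 8, lay at 3867 to 4500 untreated and at 3148 to 3531 at 1000 µM. Of their 10 probe sets 2 were called lower, against 8.48% of all tested probe sets. They were Spry1 (-0.86, adjusted p = 1.36e-05) and the brighter Notch3 probe set (-0.37, adjusted p = 0.02). Spry1 also fell at 100 µM (-0.97, adjusted p = 7.46e-06). The uncalled ones ranged from -0.64 (Notch3) to 0.13 (Cd34). Pax7 and Calcr were above the 40th percentile on 0 untreated arrays. The part of reserve cells in those 2 falls was not tested. Of 7 fibroblast and matrix genes on the array, 4 were above that level on all untreated arrays, with sums of 13142 to 23454 untreated and 16388 to 23754 at 1000 µM. Adipocyte genes gave 1 of 5 and leukocyte genes 0 of 6, where Ptprc, Cd68, Cd3e and Itgam were above that level on 0 untreated arrays, Lyz2 on 1 and Adgre1 on 2. In bulk RNA of this kind, fewer cells of a type and less RNA per cell cannot be told apart.

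At 1 µM no member was called, and at 10 µM no member was called. Over all tested probe sets 0% were called at 1 µM and 0.00695% at 10 µM; without adjustment, 12 and 5 members had limma's p under 0.05, against 960 and 717 of all. The smallest adjusted p of a member was 0.421 at 1 µM and 0.963 at 10 µM. At 100 µM again 0 members were called, against 0.862% of all tested probe sets higher and 0.355% lower, with 20 members and 1604 of all at an unadjusted p under 0.05. The nearest was Brd2 (1437210_a_at), a reader of acetylated histones. Its signal was 767.9, 718.9, 1037 and 972.9 untreated and 1261, 1118, 1080 and 1074 at 100 µM, a difference of 0.39 with an adjusted p of 0.0764. Every array at 100 µM lay above every untreated one for this probe set, a separation not counted over all probe sets at this dose. Arrays at 1 µM (934.4 to 1127) and 10 µM (929.8 to 1074) reached the range at 100 µM. With the replicate block the adjusted p of 1437210_a_at was 0.0385. The other Brd2 probe set, 1423502_at, read 856.1, 754.6, 784.6 and 678.3 untreated and 679.5, 662, 764.2 and 761.8 at 100 µM. Its groups overlapped. The median log2 difference of the members was -0.05 at 1 µM, -0.08 at 10 µM and -0.10 at 100 µM, beside -0.02, -0.02 and -0.03 for all. These comparisons share the untreated arrays.

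**Figure D1:**
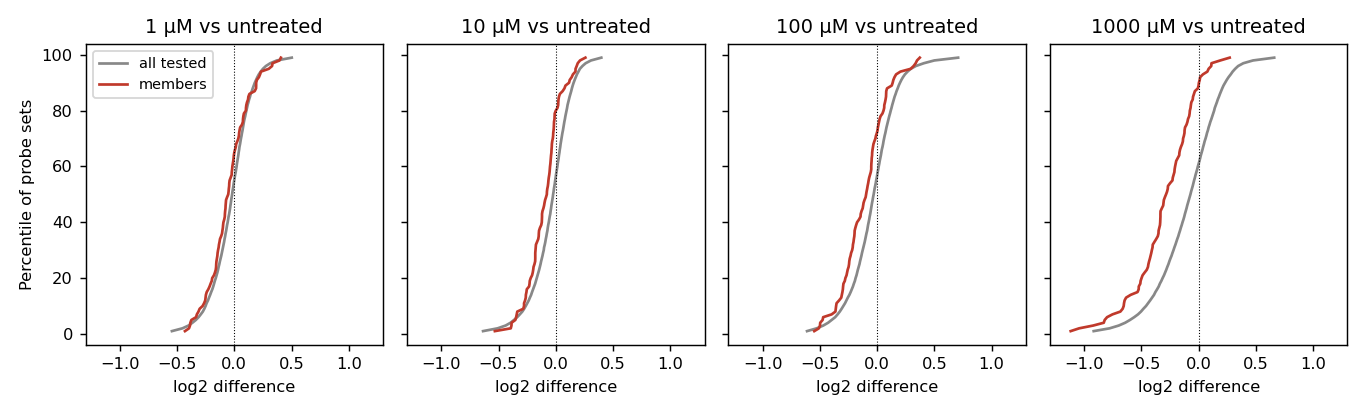
Percentiles of the log2 difference from untreated (x axis) at 1, 10, 100 and 1000 µM, for the 100 member probe sets and for all 14379 tested. At 1000 µM the member curve lies left of the curve of all tested probe sets, with medians of -0.28 and -0.07, while at 1 µM they are -0.05 and -0.02.

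Methyltransferase genes (Kmt2, Kmt5, Setd and Setdb) gave 8 falls among 17 probe sets, in 5 of 10 genes, against 8.48% of all tested probe sets. This group, set by name, includes Setd3, which acts on actin. The median of the 17 probe sets was -0.35, with a range of -1.11 to 0.09. Kmt2e, a relative of the MLL proteins that carries PHD and SET domains, had the largest difference among these. Its brighter probe set (1434704_at) read 1212, 1220, 1248 and 1229 in untreated cells and 446.3, 679.4, 551.1 and 619.5 at 1000 µM. The 4 untreated values were close together, and every value at 1000 µM was far below them and below all 12 arrays of the other doses, the lowest of which was 795.9. The log2 difference was -1.11 (SE 0.14, adjusted p = 1.88e-05), or 46.2% of untreated. The other probe set, 1427236_a_at, went from 526.8 ± 27.05 to 280 ± 30.89 (SD, n = 4), a difference of -0.92 (SE 0.13, adjusted p = 0.00012). Both probe sets also fell between 100 and 1000 µM, by 0.87 and 0.74.

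Kmt2a encodes the founding MLL methyltransferase of histone H3 lysine 4. Probe set 1452377_at read 231.9, 184, 186.6 and 156 untreated and 82.3, 135, 123.7 and 98.8 at 1000 µM. The groups did not overlap, and the difference was -0.80 (SE 0.17, adjusted p = 0.00473). Its other probe set, 1427283_at, had -0.27 (SE 0.14, adjusted p = 0.212). The H3K4 relatives Kmt2c (-0.33, adjusted p = 0.335) and Setd1a (-0.35, adjusted p = 0.239) were not called.

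Kmt5b and Kmt5c place the further methyl groups on histone H4 lysine 20. Kmt5b (1455171_at) read 491.6, 436.7, 412.2 and 437.9 untreated and 334.1, 314.6, 308 and 301.6 at 1000 µM, with no overlap. The difference was -0.50 (SE 0.09, adjusted p = 0.00134), and 1434999_at gave -0.47 (SE 0.09, adjusted p = 0.00319). A dimmer probe set, 1451817_at, had -0.34 with an adjusted p of 0.404 and was at the filter level on 11 arrays. At 100 µM 1455171_at averaged 468.4, beside 444.6 untreated. For 1434999_at, scaling ended the call, with an adjusted p of 0.0814 under median centring and 0.0733 under quantile normalization. Kmt5c (1424059_at) averaged 247.1 ± 11.42 untreated, 272.3 ± 32.46 at 100 µM and 196.2 ± 16.08 at 1000 µM. Its difference from untreated was -0.34 (SE 0.11, adjusted p = 0.0445), a call that was lost under 11 of 15 alternatives, with adjusted p-values from 0.0628 to 0.463. Each of the 4 untreated arrays, and replicates 1, 2 and 4 at 1000 µM, ended the call when left out. The monomethylating enzyme Kmt5a gave -0.41 (1460687_at, adjusted p = 0.0603; 0.0148 with the replicate block) and -0.07 (1426406_at, adjusted p = 0.631).

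Setdb1 methylates histone H3 lysine 9 in silenced chromatin. Probe set 1451833_a_at read 553.1, 433.5, 481.8 and 481.8 untreated and 351.1, 357.6, 417.8 and 312.6 at 1000 µM, so the groups did not overlap. The difference was -0.44 (SE 0.10, adjusted p = 0.00847), with adjusted p-values of 0.132 under median centring and 0.0752 under quantile normalization. The dimmer 1416670_at had -0.66 (SE 0.21, adjusted p = 0.0465). That call was lost under 11 of 15 alternatives (adjusted p from 0.0569 to 0.188), among them leaving out any array of either group other than untreated replicate 3; untreated replicate 1, at 270.9, was the highest, and without it the difference was -0.45. Setd3, the actin histidine methyltransferase, had 0.00 (95% interval -0.25 to 0.24), and the Setd6 probe sets had 0.09 and -0.34, both uncalled.

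Histone demethylases gave 4 falls among 15 probe sets, in 3 of 12 genes, against 8.48% of all tested probe sets. The group median was -0.40, with a range of -0.83 to 0.01. Kdm6a (UTX), which removes methyl groups from histone H3 lysine 27, was lower in both of its probe sets. Probe set 1427235_at read 431.8, 460.2, 478.5 and 522.6 untreated and 262.1, 319.3, 268.1 and 277 at 1000 µM, a difference of -0.75 (SE 0.09, adjusted p = 1.76e-05). The highest array at 1000 µM was below the lowest of all 16 others, 357.6. The other, 1427672_a_at, had -0.59 (SE 0.16, adjusted p = 0.0264). That call was lost under 7 of 15 alternatives (adjusted p from 0.05 to 0.161), including without untreated replicates 1 or 3 and without replicates 2, 3 or 4 at 1000 µM.

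Kdm7a, a demethylase of H3K9 and H3K27, read 154.9, 173.9, 132.5 and 131.7 untreated and 76.5, 78.2, 82.2 and 97 at 1000 µM (1427359_at). The difference was -0.83 (SE 0.24, adjusted p = 0.0304), with no overlap between these groups, but 1 array at 1 µM was as low, at 75.2. The call was lost without untreated replicates 1 or 2, without replicates 1, 2 or 3 at 1000 µM and under quantile normalization, with adjusted p-values from 0.0635 to 0.0998. Kdm5b, an H3K4 demethylase, read 452.1, 481.4, 443.7 and 460.9 untreated and 315.5, 350.4, 377.1 and 351.4 at 1000 µM (1427143_at), with no overlap and a difference of -0.40 (SE 0.10, adjusted p = 0.0122). It was not called under median centring (0.187) or quantile normalization (0.142). Its dimmer probe set 1427142_s_at had -0.42, uncalled at 0.324. Kdm1a (LSD1), among the 5 members brightest in untreated cells, averaged 1502 ± 79.1 untreated and 1405 ± 43.58 at 1000 µM (1426762_s_at), with -0.10 and a 95% interval of -0.26 to 0.07. Kdm3b (-0.52, adjusted p = 0.0605) and Kdm2b (-0.40, adjusted p = 0.0552) were not called; with the replicate block they were, at 0.0253 and 0.0275.

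**Figure D2:**
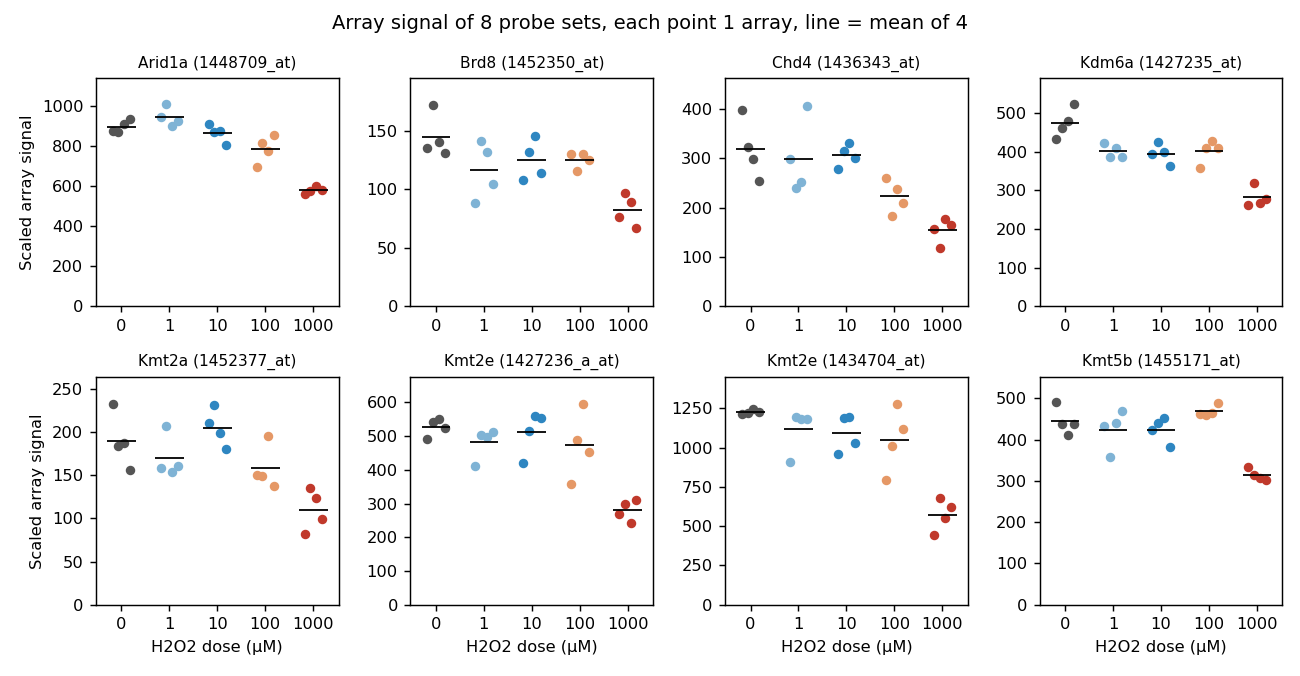
Scaled array signal (y axis, from 0) of the 8 probe sets called lower at 1000 µM under every alternative, against H2O2 dose (x axis); each point is 1 array and the line the mean of 4. For Kmt2e 1434704_at the 4 arrays at 1000 µM sit between 446.3 and 679.4 and the untreated ones between 1212 and 1248.

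Acetyltransferases gave 1 fall among 9 probe sets, in 1 of 5 genes, near the 8.48% of all probe sets, with a median of -0.27 (-0.07 under median centring, with 0 falls) and a range of -0.51 to -0.05. Kat2b (PCAF), a coactivator that acetylates histone H3, read 1031, 986.1, 972.9 and 959 untreated and 687.9, 881.9, 884 and 838.5 at 1000 µM (1434037_s_at). The groups did not overlap, and the difference was -0.27 (SE 0.08, adjusted p = 0.0424). The lowest value was replicate 1, without which the difference was -0.19 and the adjusted p 0.128. The call was lost under 10 of 15 alternatives, with adjusted p-values from 0.0591 to 0.674, also without any 1 untreated array and without replicate 4 at 1000 µM. Kat2a, the paralog of Kat2b, had -0.05, -0.16 and -0.21 in 3 probe sets, all uncalled. Kat6a had -0.33 (adjusted p = 0.0728; 0.0479 with the block) and Kat7 -0.21 and -0.38, both uncalled.

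Deacetylases gave 0 falls and 0 rises among 9 probe sets of 7 genes, where 8.48% of all tested probe sets fell and 2.46% rose. A set of 9 is too small to read 0 as below those shares. The smallest adjusted p of the deacetylases was 0.124. Their median was -0.12 as deposited, 0.08 under median centring and 0.03 under quantile normalization, so its sign followed the scaling. Hdac1, a catalytic subunit of several corepressor complexes, read 1299, 1174, 1186 and 1218 untreated and 1228, 1355, 1278 and 1278 at 1000 µM. These groups overlapped, and the difference was 0.08 with a 95% interval of -0.09 to 0.24. Its paralog Hdac2 read 1073, 1013, 1069 and 1184 untreated and 1310, 1170, 1214 and 1243 at 1000 µM, a difference of 0.19 (95% interval 0.03 to 0.35, adjusted p = 0.124). Hdac2 was called higher under median centring (0.39, adjusted p = 0.00625) and with array weights (0.17, adjusted p = 0.046). Hdac3, the subunit of NCoR complexes, had -0.04 (95% interval -0.21 to 0.12). The class II enzymes Hdac5 (-0.12) and Hdac7 (-0.22 and -0.30) were not called, with intervals that reached -0.62 and -0.69.

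Chromodomain helicases gave 2 falls among 10 probe sets, against 8.48% of all tested probe sets. Both were in Chd4, 1 of 6 genes. The group median was -0.38, with a range of -1.57 to -0.21. Chd4 is the ATPase of the NuRD complex, which joins remodelling with deacetylation. Probe set 1436343_at read 398.1, 323, 298.8 and 254.7 untreated and 156.6, 118.5, 177.5 and 165.2 at 1000 µM. All 4 values at 1000 µM were below the other 16 arrays, with a difference of -1.04 (SE 0.17, adjusted p = 0.000482). At 100 µM the same probe set read 260.9, 183.6, 238.5 and 209, which overlaps the untreated arrays, and was not called there (-0.51, adjusted p = 0.203). The dim 1438476_a_at read 73.4, 88.6, 99.1 and 103.5 untreated and 19.8, 15.5, 46.7 and 59.2 at 1000 µM, with -1.57 (SE 0.41, adjusted p = 0.0168). It passed the filter on 10 arrays, 2 untreated and 0 at 1000 µM, and its call was lost under quantile normalization (0.0661) and without replicate 1 (0.0501) or replicate 2 (0.0667) at 1000 µM. The brightest probe set of the gene, 1451295_a_at, had -0.23 (SE 0.21, adjusted p = 0.544): its arrays read 682.1, 991.7, 968.3 and 1024 untreated and 619.8, 892.5, 750.6 and 853.9 at 1000 µM, which overlap.

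Estimates for the Chd4 probe sets thus lay apart, and whether probe sets of 1 gene differed was tested for each gene with several. Over 38 pairs of probe sets in 29 member genes, 0 differed from the gene's brightest probe set at an adjusted p under 0.05, against 0.606% of 5112 pairs over all genes. A set of 38 pairs is too small to read 0 as below that share. The nearest were Chd4 1438476_a_at (-1.34 relative to 1451295_a_at, SE 0.37, limma adjusted p = 0.122), Kmt2a 1452377_at (-0.53, adjusted p = 0.23) and Brd8 1452350_at (-0.59, adjusted p = 0.267). Of the 14 genes with a called fall, 11 were called by their brightest probe set. Among those 11, Kdm7a, Kmt5c and Smarcd1 had only 1 tested probe set, so for them this was fixed in advance. In Brd8, Chd4 and Kmt2a the brightest probe set was not called.

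**Figure D3:**
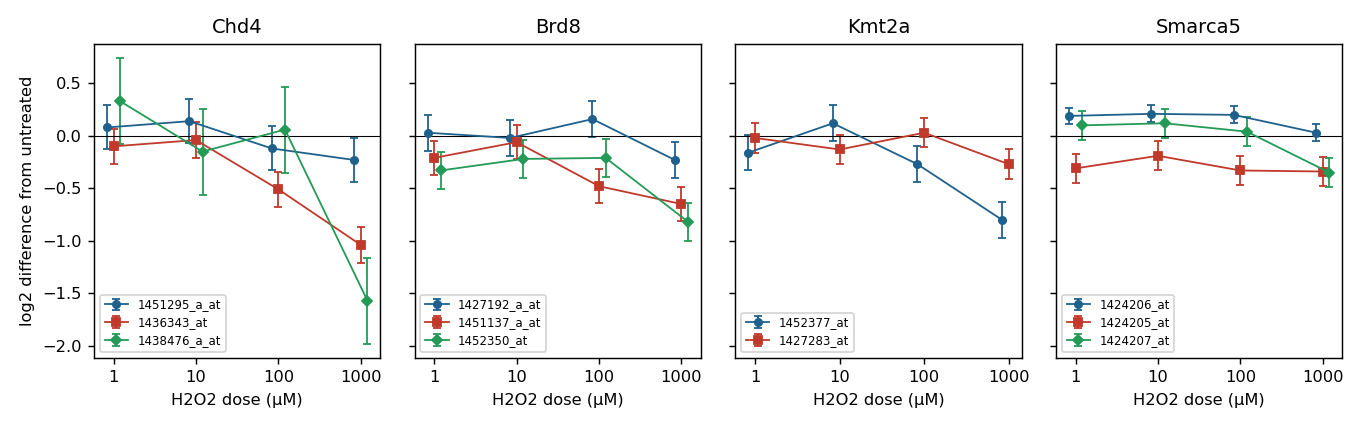
Log2 difference from untreated (y axis) by H2O2 dose (x axis) for each tested probe set of Chd4, Brd8, Kmt2a and Smarca5; error bars are SE from limma. At 1000 µM the Chd4 probe sets stand at -0.23, -1.04 and -1.57, and those of Smarca5 at 0.03, -0.34 and -0.35.

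SWI/SNF subunits and relatives (Smarc) gave 1 fall among 21 probe sets, in 1 of 11 genes, against 8.48% of all tested probe sets. Their median was -0.13, with a range of -0.52 to 0.28, and it was 0.07 under median centring and -0.03 under quantile normalization. Smarcd1 (BAF60A), an accessory subunit, read 337, 326.5, 283 and 310.8 untreated and 214.5, 206.1, 201.9 and 254 at 1000 µM (1448913_at). The groups did not overlap, and the difference was -0.52 (SE 0.12, adjusted p = 0.00862), lost under median centring (0.099) and quantile normalization (0.116). The muscle-enriched subunit Smarcd3 (BAF60C) averaged 910 ± 99.85 untreated and 907.4 ± 35.67 at 1000 µM, a difference of 0.00 with a 95% interval of -0.20 to 0.20. The ATPase Smarca4 (BRG1) read 1246, 1642, 1601 and 1543 untreated and 1540, 1402, 1359 and 1422 at 1000 µM (1426804_at), with -0.07 (95% interval -0.24 to 0.10). In replicates 2 to 4 of every dose the difference was -0.19 and called (adjusted p = 0.0199), and with array weights it was -0.18 and called (adjusted p = 0.00982). Smarcb1 (0.11 and 0.28), Smarce1 (-0.05 and -0.08) and Smarcc1 (-0.27 and -0.17) were not called either. Smarca5 (SNF2H), the ISWI ATPase, had 0.03 in its brightest probe set (1424206_at, 95% interval -0.13 to 0.20). Its other probe sets had -0.34 (1424205_at, adjusted p = 0.133) and -0.35 (1424207_at, adjusted p = 0.114), called with the replicate block at 0.0155 and 0.0138. Smarcad1 (1452276_at) had -0.43, with an adjusted p of 0.0506, or 0.00386 with the block.

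AT-rich interaction domain genes gave 3 falls among 9 probe sets, in 2 of 6 genes, against 8.48% of all tested probe sets. The group median was -0.37, with a range of -0.65 to 0.27. Arid1a (BAF250A), the DNA-binding subunit of the canonical BAF complex, had the smallest adjusted p of any member. Probe set 1448709_at read 875.5, 872.8, 911 and 935.1 untreated and 559.6, 576.8, 600.4 and 581.6 at 1000 µM. Arrays of each group were close together, and those at 1000 µM were below all 16 others, the lowest of which was 693.8. The difference was -0.63 (SE 0.07, adjusted p = 1.12e-05), or 64.5% of untreated. The other probe set, 1417440_at, had -0.65 (SE 0.19, adjusted p = 0.0323) with overlapping groups, at 438.8 to 800.7 untreated and 314.9 to 513 at 1000 µM. That call was lost under 7 of 15 alternatives (adjusted p from 0.0551 to 0.122), among them without untreated replicates 1, 2 or 3 and without replicates 3 or 4 at 1000 µM. Arid4b (1435768_at), a subunit of SIN3 deacetylase complexes, read 487.2, 549.1, 504.1 and 585.5 untreated and 360, 408.1, 432.3 and 468.4 at 1000 µM, with -0.35 (SE 0.10, adjusted p = 0.0327). It was lost under 7 of 15 (adjusted p from 0.0547 to 0.381), among them without untreated replicates 2 or 4 and without replicates 1, 2 or 3 at 1000 µM. Arid2, of the PBAF complex, had -0.08 (95% interval -0.42 to 0.26).

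Bromodomain genes gave 2 falls among 10 probe sets, against 8.48% of all tested probe sets. Both were in Brd8, 1 of 5 genes. The group median was -0.21 (-0.01 under median centring and -0.11 under quantile normalization), with a range of -0.82 to 0.11. Brd8 belongs to the TIP60 acetyltransferase complex. Probe set 1452350_at read 135.3, 171.7, 140.3 and 131.3 untreated and 76.1, 96.8, 89.3 and 66.8 at 1000 µM, with -0.82 (SE 0.18, adjusted p = 0.00481). The groups did not overlap, although the array labelled replicate 1 at 1 µM was at 87.8. Probe set 1451137_a_at read 277.6, 293.8, 302.6 and 326.7 untreated, 243.6, 198.9, 212.2 and 209.8 at 100 µM and 164.2, 202.3, 205.4 and 192.4 at 1000 µM. Its values at 100 µM were below all untreated ones, a separation not counted over all probe sets, and it was not called there. The array labelled replicate 1 at 1 µM was as low as those at 1000 µM, at 164.3. The difference at 1000 µM was -0.65 (SE 0.16, adjusted p = 0.0125). Quantile normalization, at 0.0672, was the 1 alternative of 15 that lost this call. The brightest Brd8 probe set, 1427192_a_at, had -0.23 at 1000 µM (SE 0.17, adjusted p = 0.435). It read 507.8, 675.1, 797.3 and 792.2 untreated and 948.1, 871.1, 636.8 and 645.4 at 100 µM, which overlap. Brd2 had 0.11 and -0.01 and Brd7 -0.19 at 1000 µM, all uncalled.

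**Figure D4:**
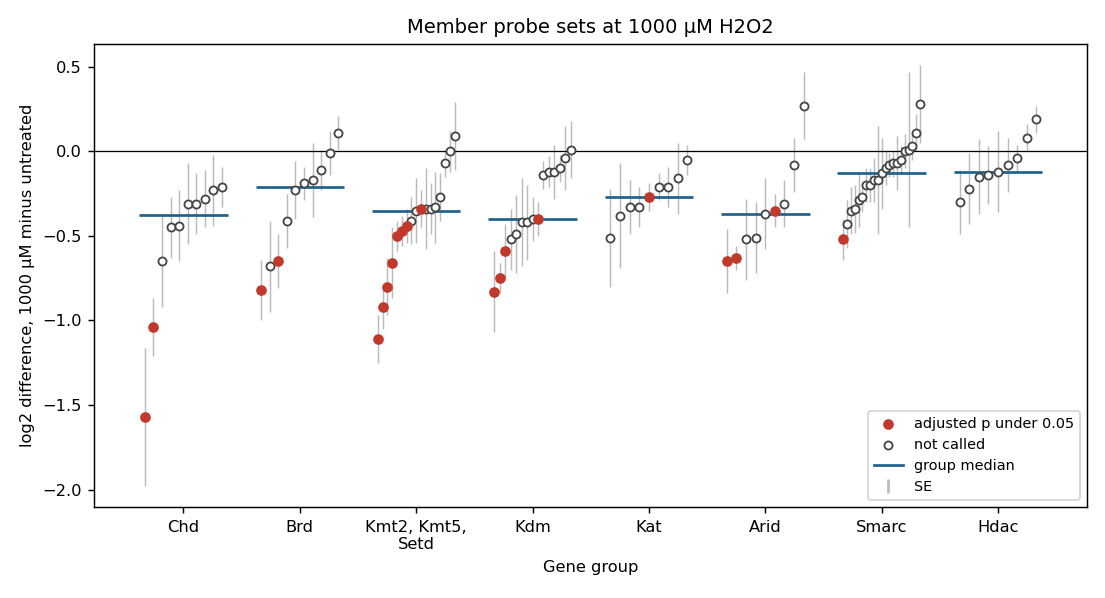
Log2 difference at 1000 µM minus untreated (y axis) for each of the 100 member probe sets by gene group (x axis), with SE; filled points have an adjusted p under 0.05 and the bar is the group median. The 17 methyltransferase probe sets hold 8 of the 21 falls and the 9 deacetylase probe sets 0, against 8.48% of all tested probe sets. A set of 9 is too small to read 0 as below that share.

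Members were then set against the other arrays. At 1000 µM, 34 members had all 4 arrays below all 4 untreated ones, against 13.8% of all tested probe sets, and 0 had all 4 above, against 6.66%. All 4 arrays at 1000 µM lay below the other 16 arrays for 9 members, against 3.09% of all. Those 9 were Arid1a 1448709_at, Chd4 1436343_at, both probe sets of Kdm6a, Kmt2a 1452377_at, both of Kmt2e and, of Kmt5b, 1434999_at and 1455171_at. Other treated arrays were also used as the reference, an alternative added after seeing the data. Against 1 µM, 16 members were lower at 1000 µM and 0 higher, with 6.16% and 2.30% of all; against 10 µM, 16 were lower and 0 higher, with 5.83% and 1.70%.

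Between 100 and 1000 µM, 13 members fell and 0 rose, against 3.60% and 0.744% of all tested probe sets. The median was -0.15 for members and -0.04 for all. The 13 were in Arid1a, Arid5a, Brd8, Chd1, Chd4, Kdm6a, Kmt2e, Kmt5b, Kmt5c and Setdb1. Of 15 alternatives, Brd8 1452350_at kept its call under 3, Setdb1 1451833_a_at under 7 and Kdm6a 1427672_a_at under 8. The only Chd4 probe set among the 13, the dim 1438476_a_at, kept its call under 9. Kmt5c kept it under 13, and Kdm6a 1427235_at and Arid1a 1448709_at under 14. Arid5a, both Kmt2e probe sets and the 2 called Kmt5b probe sets kept theirs under all 15. Arid5a, which besides its DNA-binding domain is known to bind and stabilise inflammatory mRNAs, read 354.3, 409.6, 318.7 and 410 untreated, 368.4, 502.8, 523.2 and 512.5 at 100 µM and 263.6, 326.7, 300.2 and 313.5 at 1000 µM (1451340_at). It was lower at 1000 than at 100 µM by a log2 difference of -0.65 (SE 0.14, adjusted p = 0.00767). Against untreated neither dose passed the test, with 0.35 at 100 µM (adjusted p = 0.314) and -0.31 at 1000 µM (adjusted p = 0.162; 0.0459 with the block). Of its 4 arrays at 100 µM, 3 were the highest of the untreated, 100 and 1000 µM groups. Arrays at 1 µM (332.9 to 484.2) and 10 µM (360.1 to 512.2) overlapped the range at 100 µM. Chd1, a remodeller that binds methylated H3K4, averaged 194.4 untreated, 259.4 at 1 µM, 236.5 at 10 µM, 243.8 at 100 µM and 159.7 at 1000 µM (1420990_at). Its difference from 100 µM was -0.60 (SE 0.17, adjusted p = 0.0456), lost under 10 of 15 alternatives (adjusted p from 0.0511 to 0.154), including without any 1 array at 100 µM and without replicates 2, 3 or 4 at 1000 µM. Other tested Chd1 probe sets were not called between these doses, and their groups overlapped. Probe set 1450077_at read 138.1 to 229.7 untreated, 106.8 to 149.4 at 100 µM and 107 to 140.4 at 1000 µM. Probe set 1431166_at read 96.6 to 131.7 at 100 µM and 57.7 to 126.4 at 1000 µM. With the block, Hdac2 (0.24, adjusted p = 0.0452) and Setd6 1428797_at (0.30, adjusted p = 0.0434) were higher at 1000 than at 100 µM, and Chd4 1436343_at (-0.53, adjusted p = 0.0389), Kmt2a 1452377_at (-0.53, adjusted p = 0.0434), Smarca5 1424207_at (-0.39, adjusted p = 0.0112), Arid4b 1435768_at (-0.31, adjusted p = 0.0487) and Smarcad1 1452276_at (-0.48, adjusted p = 0.00283) were lower.

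The calls at 1000 µM differed in how they held over 15 alternatives: other scalings, a higher floor, no filter, the block, replicates 2 to 4, array weights and leaving out each of the 8 arrays compared. Those called under all 15 were 8 probe sets of 7 genes: Arid1a 1448709_at, Brd8 1452350_at, Chd4 1436343_at, Kdm6a 1427235_at, Kmt2a 1452377_at, both Kmt2e and Kmt5b 1455171_at. Median centring moved the median of all tested probe sets from -0.07 to 0.13 and that of the members from -0.28 to -0.08; under quantile normalization they were 0.01 and -0.15. Under median centring and quantile normalization the group medians were -0.20 and -0.21 for Kdm and -0.15 and -0.17 for the methyltransferases. They were -0.16 and -0.23 for Arid and -0.17 and -0.21 for Chd. Relative to all tested probe sets the members' median was -0.21 as deposited and -0.16 under quantile normalization. Median centring shifts every probe set of an array by the same amount. It therefore cannot change this relative value, which stayed at -0.21, or the spacing of the group medians. Of all calls at 1000 µM, 22.5% were rises as deposited, 83.3% under median centring and 38.1% under quantile normalization.

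**Figure D5:**
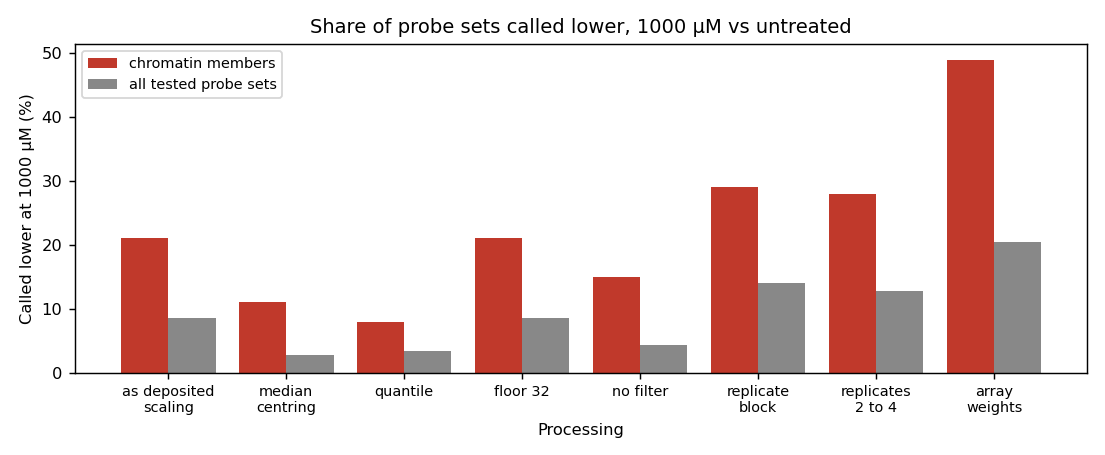
Share of probe sets called lower at 1000 µM against untreated (y axis, percent) among chromatin members and among all tested probe sets, under 8 ways of processing (x axis). As deposited the shares are 21% and 8.48%, and with array weights 49% and 20.4%.

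Chromatin genes outside the naming rule gave a further view. A list of 116 such genes had 92 on the array and 80 tested, in 138 probe sets. Of these 22 fell (15.9%) and 2 rose (1.45%) at 1000 µM, against 8.48% and 2.46% of all tested probe sets, with a median of -0.15. At 100 µM 0 were called in either direction, against 0.355% of all lower and 0.862% higher. With median centring 6 fell (4.35%) and 14 rose (10.1%), where 2.83% of all fell and 14.1% rose. With quantile normalization 10 fell (7.25%) and 3 rose (2.17%), where 3.32% and 2.04% of all did. Polycomb genes gave 7 falls among 26 probe sets: Jarid2, an accessory subunit of PRC2, had -1.01 (1422697_s_at, adjusted p = 0.000441) and Cbx2, a PRC1 subunit, -0.90 (adjusted p = 0.0002). Remodeller genes gave 5 of 26, among them Baz1b 1420975_at (-0.65, adjusted p = 0.00115) and Pbrm1 1426878_at (-0.53, adjusted p = 0.00871), a PBAF subunit. The brightest probe sets of both were uncalled, at -0.29 for Baz1b 1434824_at (adjusted p = 0.106) and -0.28 for Pbrm1 1426877_a_at (adjusted p = 0.162), as were Baz1b 1450068_at (-0.10) and Pbrm1 1427266_at (-0.55, adjusted p = 0.0882). Deacetylase complexes gave 4 of 26, with the NAD-dependent Sirt1 at -0.52 (adjusted p = 0.00281) and, for the scaffold Sin3a, 1419102_at at -0.69 (adjusted p = 0.00653). Sin3a 1449343_s_at, its brightest, had -0.25 (adjusted p = 0.186) and 1419101_at -0.11, both uncalled. Acetyltransferases and their partners gave 3 of 12, heterochromatin genes 2 of 15 and DNA methylation genes 1 of 12. That 1 was Mbd1 1437061_at at -0.77 (adjusted p = 0.000692), while the brightest Mbd1 probe set, 1417968_a_at, had -0.12 (adjusted p = 0.681) and 1430837_a_at -0.46 (adjusted p = 0.196). Other methyltransferases (11 probe sets) and other demethylases (10) gave 0. Under median centring and quantile normalization the falls were 2 and 2 for Polycomb, 2 and 3 for remodellers and 1 and 3 for deacetylase complexes. They were 0 and 0 for acetyltransferases and their partners, 0 and 1 for heterochromatin and 1 and 1 for DNA methylation. As deposited, the 2 rises were Cbx1 1436266_x_at (0.55, adjusted p = 0.00306), of a heterochromatin protein, and Rbbp7 1415775_at (0.23, adjusted p = 0.0384), of a histone chaperone shared by Polycomb and NuRD complexes. Uncalled were the brightest Cbx1 probe set, 1433718_a_at (0.11, adjusted p = 0.663), Cbx1 1422935_x_at (0.59, adjusted p = 0.0974) and Rbbp7 1456227_x_at (0.09, adjusted p = 0.416). The called probe sets Jarid2 1422697_s_at and those of Cbx2, Baz1b, Sin3a, Mbd1 and Cbx1 kept their calls under all 15 alternatives, whereas Rbbp7 kept its call under 6, Pbrm1 under 13 and Sirt1 under 14.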

How the data were processed

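Each of the 20 samples was 1 array, grouped by the dose in its title. The authors deposited intensity values on a linear scale, made with Affymetrix Microarray Suite 5.0 per the submitters' processing notes; a 2% trimmed mean of 500.1 to 500.2 on every array shows that they had been scaled globally. Arrays were read as single-channel: a label lists a dye pair, but the design text speaks of 1 stain. Precision rests on 4 arrays per dose, since arrays have no read depth.

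Signals were brought to exactly 1 trimmed mean, floored at 1 and put on the log2 scale, so a fold of a dim probe set is less exact. Of 22690 probe sets, 64 controls were left out and 8247 did not reach the 40th percentile of their array on at least 4 arrays. All 5 doses entered 1 fit in limma 3.58.1 (R 4.3.3; lmFit, eBayes with trend), with Benjamini-Hochberg adjustment over all tested probe sets within a comparison; it was tested on simulated data. Verbs such as rose and fell are kept for an adjusted p under 0.05. Adjusted p-values are two-sided and from limma. Differences are on the log2 scale with SE. "Uncalled" or "not called" means that the test was not passed, not that levels were equal.

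Gene names came from the platform annotation: 20393 probe sets had 1 symbol, 691 several and 1606 none, and 0 symbols changed against RefSeq. No build is given for the array, so coordinates are those of RefSeq promoters only.

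The members, the gene lists and the rule for naming genes were chosen with earlier results of these data known. Named were members called at any dose or between 100 and 1000 µM (at most 15 genes in each direction at 1000 µM and at most 5 more between those doses), the 5 of highest mean signal in untreated cells and genes whose probe sets differed; others are given as values or counts.

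Same-numbered arrays deviated together between the untreated, 100 and 1000 µM groups. The correlations of their deviations from the group means ran from 0.115 (number 2) to 0.494 (number 1) for untreated and 100 µM, from 0.185 to 0.513 for untreated and 1000 µM, and from 0.12 to 0.506 for 100 and 1000 µM. All were over 0.1, though only number 1 stood clearly apart, and in 5 of 12 cases, all among numbers 2 to 4, the best match was another number. On the 0.1 threshold, the replicate number was also fitted as a block, although no label says what it marks. A title at 10 µM has no number; that array is called replicate 1 and was left out of the block fit, which used 19 arrays. The unit in 1 title at 1 µM is misspelt and was read as µM. Alternatives were median centring, quantile normalization, a floor of 32, no filter, the block, replicates 2 to 4, array weights and leaving out each array compared.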

Additional observations from a re-analysis of the deposited data

Results flagged for a closer look

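In 205 groups of 4 arrays, the named members at each dose, 1 array stood apart from the other 3 by Dixon's criterion in 16, where chance gives about 1 in 20 groups; the value given is the gap to the nearest other array over the range of the group. Of these, 10 concerned arrays treated as replicate 1 of their dose, which the leading principal component also set apart.

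For Kmt2e, replicate 1 at 1 µM was low in both probe sets, at 909.2 beside 1179 to 1194 (1434704_at, 0.955) and at 410.8 beside 496.4 to 512.5 (1427236_a_at, 0.856). Brd8 1451137_a_at was low on the same array, at 164.3 beside 299.1 to 302.2 (0.983). For Kmt2a 1452377_at, replicate 2 at 1 µM was high, at 206.6 beside 153.5 to 160.2 (0.856). Among untreated arrays, replicate 1 was low for Chd4 1451295_a_at, at 682.1 beside 968.3 to 1024 (0.863), and for Smarca5 1424206_at, at 1882 beside 2337 to 2415 (0.869). Smarca4 1426805_at was low on untreated replicate 4, at 295.2 beside 386.1 to 396.2 (0.912).

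At 10 µM, Arid4b 1460384_a_at was low on the array called replicate 1, at 59.9 beside 72.7 to 74 (0.916), and Kdm7a was high on replicate 2, at 157.4 beside 109.7 to 113.9 (0.896). At 100 µM, Kdm7a was low on replicate 2, at 96.2 beside 126.9 to 131 (0.897), as was Arid4b 1460384_a_at, at 54.9 beside 70.2 to 73.4 (0.847), while Chd1 1431166_at was high there, at 131.7 beside 96.6 to 100.6 (0.869). On replicate 1 at 100 µM, Arid5a was low, at 368.4 beside 502.8 to 523.2 (0.887), Kdm1a 1426762_s_at was low, at 1243 beside 1454 to 1485 (0.879), and Kmt5c was high, at 321 beside 256 to 256.2 (0.996). At 1000 µM, Kat2b 1450821_at was low on replicate 1, at 36.7 beside 74.6 to 83.6 (0.862).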

How the results depend on the processing

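At 1000 µM the count of members lower than untreated, 21, became 11 under median centring, 8 under quantile normalization and 49 with array weights; 29 with the replicate block, 28 in replicates 2 to 4 and 18 without a filter were nearer to it, as were 15 to 18 without 1 array and 16 with 1 µM or 10 µM as the reference. The count higher, 0, became 1 under median centring (Hdac2) and 1 with array weights. Against 100 µM the count lower, 13, became 6 under median centring, 7 under quantile normalization, 27 with array weights and 8 to 11 without 1 array, where 8 came without replicate 2 at 100 µM or at 1000 µM; the count higher, 0, became 1 under median centring, 2 with the replicate block, 2 with array weights and 0 to 1 without 1 array (1 without replicate 3 at 100 µM). At 100 µM the count higher, 0, became 1 with the replicate block (Brd2), 1 in replicates 2 to 4 (Arid5a), 2 with array weights and 0 to 1 without 1 array (1 without untreated replicate 3); the count lower, 0, became 1 in replicates 2 to 4 (Brd8 1451137_a_at) and 3 with array weights. At 1 and 10 µM the count stayed at 0 under every alternative run. Over 1845 single-member values under an alternative, 0 reversed a call. The replicate block ended 0 of the 21 calls at 1000 µM, and the calls it added are given beside those genes. The causes of these shifts were not tested. Dim probe sets near the filter limit what can be read, as for Chd4 1438476_a_at.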
